A study of Mus musculus with 12 samples.

Results

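The regions described here were stretches of mRNA that were called as N6-methyladenosine (m6A) peaks in every one of 6 peak lists from C17.2, a line of mouse neural stem cells (NSCs) that was made to grow without limit. Peaks of the 6 lists were merged where they overlapped by at least 1 base, and a merged region was kept when it held a peak of all 3 control and all 3 hypoxia/reoxygenation (H/R) lists. This left 5950 of 27079 merged regions (21.97%), in 3810 of the 10030 genes that had a peak in any list (38.0%). The rule used the presence of a call in each list, so that presence, and the strength needed for it, describe the choice and are no result. The 12 samples formed 4 groups of 3, namely control and H/R immunoprecipitates (IP) and their inputs. All came from the C17.2 line, and no further genetic change or agent was stated beside the oxygen treatment. H/R cells spent 12 h in a chamber at 5% O2 and then 48 h in standard oxygen, and control cells stayed in standard oxygen. RNA pieces bound by an antibody to m6A were sequenced together with unselected RNA, the input, a method known as MeRIP-seq. Each list compared an IP with its input, and no label links the letters A, B and C of the lists to a replicate number. Nothing stated that replicates were separate cultures, so p-values measure the spread between these libraries, which may be technical, and C17.2 is a single line.

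m6A is placed on RNA by a nuclear complex built around the METTL3 and METTL14 proteins and can be removed by the demethylases FTO and ALKBH5. It lies mostly in the motif DRACH, where D stands for any base but C, R for a purine and H for any base but G. GGAC with A, C or T after it is the best known form. In most mammalian mRNAs it is found in long internal exons and around the stop codon, and in neural stem cells it is known to bear on self-renewal and differentiation.

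The length of the whole lists ranged from 7863 peaks in control C to 22038 in H/R C, so the regions took up between 27.5% and 75.8% of a list. Among the peaks inside the regions, the median false discovery rate given by the peak caller lay between 28.98% and 100% in a list, and at most 7 of a list's peaks there had a rate of 5% or less. In each list between 63.1% and 71.1% of the peaks inside the regions began and ended exactly at the edges of an annotated exon. A region therefore often stands for an exon and not for the narrower site that was bound, and sequence features below describe such stretches. Of the regions, 5799 held exactly 1 peak in each list, 3846 (64.6%) had the same coordinates in all 6 lists, and 23 carried peaks of a pair of gene symbols. Their median length was 662 bases, from 26 bases in Psmc1 to 10812 bases in Eppk1.

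Many of the regions that stood highest in the rank order of fold enrichment were of 2 kinds, which are shown here because the later results on composition turn on them. One kind was a short coding exon rich in A and G. The following 3 such exons, picked after their values were seen, are printed whole on the transcript strand (build mm10), with every DRACH match in capitals. They are the regions of Fam32a at chr8:72219941-72220082 (plus strand), of Gigyf2, a translational repressor, at chr1:87428570-87428728 (plus strand), and of Supt5, a transcription elongation factor, at chr7:28331370-28331529 (minus strand).
Fam32a: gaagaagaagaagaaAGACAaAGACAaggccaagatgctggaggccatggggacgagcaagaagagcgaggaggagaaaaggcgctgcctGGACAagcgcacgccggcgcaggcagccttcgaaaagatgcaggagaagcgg
Gigyf2: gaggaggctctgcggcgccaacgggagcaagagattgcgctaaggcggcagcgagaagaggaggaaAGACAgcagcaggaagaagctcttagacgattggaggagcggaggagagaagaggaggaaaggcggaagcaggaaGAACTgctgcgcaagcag
Supt5: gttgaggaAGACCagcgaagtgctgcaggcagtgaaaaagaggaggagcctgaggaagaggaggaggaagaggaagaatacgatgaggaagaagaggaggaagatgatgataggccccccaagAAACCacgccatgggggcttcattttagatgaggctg
A and G made up 74.6%, 75.5% and 73.1% of the bases in Fam32a, Gigyf2 and Supt5, and T made up 5.63%, 7.55% and 12.5%. Every base of the 3 stretches was coding. They held 3, 2 and 2 DRACH matches.

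The other kind was a first exon rich in G and C. The 4 examples printed here have their centre in the 5′ untranslated region (5′UTR). Others were centred near the start codon, as in Arglu1, or in coding sequence, as in Trim44. The windows of 29 bases below surround the GGAC nearest to the centre of 4 such regions, with each GGAC in capitals. They lie in Ahnak, which encodes a giant scaffold protein (chr19:8989299-8989327, plus strand), in Rrbp1, which encodes a ribosome-binding protein of the endoplasmic reticulum (chr2:144011126-144011154, minus strand), in Basp1, a membrane protein of growth cones (chr15:25413607-25413635, minus strand), and in Ptms, a small acidic nuclear protein (chr6:124917778-124917806, minus strand).
Ahnak: gctctgccgcggGGACtgcactgtccgcc
Rrbp1: ggcGGACggggcGGACggcgccagggtcg
Basp1: agccacccggccGGACgacaccagccacc
Ptms: ggtctctgctcgGGACccacccccgcccc
G and C made up 74.0%, 74.7%, 73.7% and 79.3% of the regions of Ahnak, Rrbp1, Basp1 and Ptms. In Rrbp1 and Basp1 the GGAC is followed by G, so that these printed matches are not DRACH.

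The last pair of sequences belongs to the regions whose rank rose after H/R, as described further down. The region of Ccsap, which encodes a protein of centrioles, cilia and the spindle, lies at chr8:123845180-123845445 (minus strand) and is printed whole, with 10 DRACH matches in capitals. The region of Kbtbd11, which encodes a protein with a BTB domain and kelch repeats, is long, and only the 29 bases around the DRACH nearest to its centre are shown (chr8:15028923-15028951, plus strand).
Ccsap: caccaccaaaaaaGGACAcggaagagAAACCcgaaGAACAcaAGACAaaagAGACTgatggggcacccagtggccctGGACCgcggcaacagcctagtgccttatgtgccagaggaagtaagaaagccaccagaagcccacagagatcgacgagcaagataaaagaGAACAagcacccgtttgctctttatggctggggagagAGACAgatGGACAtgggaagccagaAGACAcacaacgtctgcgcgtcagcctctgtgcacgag
Kbtbd11: cctctatcgcttTGACCtgtgtgggagcc
The Ccsap stretch is coding throughout and lies in exon 3 of 4, and the Kbtbd11 region is centred in coding sequence in exon 2 of 2.

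Fold enrichment, the ratio of IP to the local background that the peak caller estimates, was read only as an order within a list. Its level differed between the groups. Peaks inside the regions had a median fold of 30.9, 39.5 and 30.1 in the control lists but of 17.4, 23.5 and 19.1 in the H/R lists. A lower fold after H/R therefore does not by itself show a lower rank. Each region was given the percentile of its fold among the 5950 regions of that list, from 0 for the lowest to 100 for the highest. The first place in mean percentile went to the first exon of Ahnak, with a fold of 834, 993 and 856 in the control lists and 822, 735 and 638 in the H/R lists, always given in the order A, B, C. It stood at or above the 99.9th percentile in every list. The first exon of Rrbp1 followed, with 479, 578 and 599 in the control lists and 421, 482 and 498 in the H/R lists. Both lay above every other region in mean rank, and neither was called in the comparison of ranks described further down (limma adjusted p = 0.510 for Ahnak and 0.570 for Rrbp1).

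Of the 12 regions of highest mean rank, 9 were counted in the first exon of the transcript on which they were placed. Beside Ahnak, Rrbp1 and Hnrnpm these were Zc3h15, Ptms, Basp1, Supt5, Arglu1 (an arginine- and glutamate-rich nuclear protein) and Trim44. The fold of the last 6 lay between 135 and 878 over the lists. Basp1 had 299, 415 and 356 in the control lists against 406, 408 and 461 in the H/R lists. Hnrnpm, an RNA-binding splicing regulator, fell in different parts of its several listed transcripts, with a fold from 141 to 348. Its centre was classed as 3′UTR, so its count as a first exon is uncertain. The coding exon of Anp32b, an acidic histone chaperone, is 76.6% A and G and had a fold from 118 to 329. The region of Wdr60, a dynein-2 subunit, had a fold from 118 to 408. The remaining 1 was Gm10800, a predicted gene, which is taken up with its relatives at the end.

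At the other end, the 6 regions of lowest mean rank were those of Large, Dynlrb1, Ypel5, Tbca, Itsn1 and Srp14. Large encodes a glycosyltransferase of dystroglycan, and its region had a fold of 8.41, 12.7 and 7.06 in the control lists and 4.66, 5.70 and 5.12 in the H/R lists. Dynlrb1 is a light chain of dynein, Tbca a tubulin-folding cofactor, Itsn1 a scaffold of endocytosis and Srp14 a protein of the signal recognition particle. The fold values of these 6 regions lay between 4.05 and 18.7. In 5 of them, all but Itsn1, the region lay in the last exon.

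**Figure D1:**
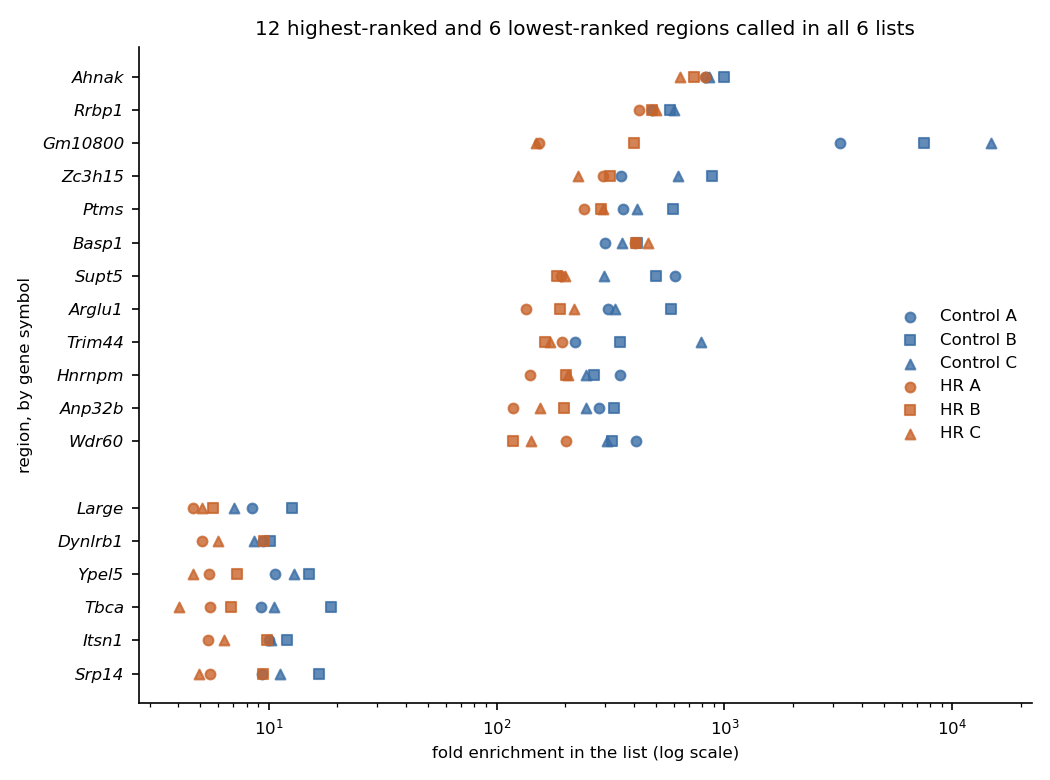
Fold enrichment on a log axis of the 12 regions of highest and the 6 of lowest mean rank, 1 point for each library (blue control, orange H/R; circle A, square B, triangle C). Ahnak and Rrbp1 lay at 421 or above in every list, and Gm10800 ran from 3217 to 14837 in the control lists.

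The rank order was shared in large part by the lists. Spearman's rank correlation of the fold over the 5950 regions was 0.720 to 0.759 among the control lists, 0.703 to 0.780 among the H/R lists and 0.640 to 0.758 across the groups. These are descriptions over regions and not over independent samples, and the lists share the regions by choice. The 3 lowest values involved H/R C, with 0.640, 0.670 and 0.649 against the control lists. A region's percentile had a median SD of 12.9 over the 6 lists. In all, 222 regions stood in the top decile of every list and 1160 in the top decile of at least 1 list, whereas 70 stood in the lowest decile of every list.

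Composition differed along this order. The median share of G and C went from 47.1% in the lowest decile of mean rank to 57.0% in the highest, where each decile held 595 regions. First exons made up 7.07% of the placed regions in the lowest decile and 36.8% in the highest. The last exon went the other way, with 35.5% in the lowest decile and 24.1% in the highest. Regions centred in the 5′UTR were 2.59% of the lowest and 12.8% of the highest decile, those within 100 bases of the start codon 3.97% and 15.8%, and those in the 3′UTR 20.9% and 11.3%. The coding share was 67.1% in the lowest decile and 55.6% in the highest.

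The motifs ran in opposite directions along the rank. DRACH matches per kb averaged 22.7 in the lowest decile and 16.7 in the highest, while the shorter GGAC went from 4.10 to 5.44 per kb. Searched on the transcript strand, DRACH was present at least once in 97.2% of the 5808 regions whose strand was known, and GGAC in 80.0%. Both motifs are counted with overlaps, and a GGAC followed by A, C or T counts under both. A match is a description of the letters and not a methylated site.

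Among the 60 regions of highest mean rank, 22 had a G and C content of at least 65% (36.7%, against 11.9% of all 5950 regions), and 21 of these 22 were first exons. A further group, overlapping in 2 regions, had at least 65% A and G, namely 15 of 60 (25.0%, against 11.8%), and 12 of those 15 were centred in coding sequence. The exons of Cdk11b, a kinase tied to splicing, Ddx46, a splicing helicase, Map4k4, a kinase, Chaf1a, a subunit of the chromatin assembly factor, and Incenp, a passenger protein of the centromere, belonged to this purine-rich group and were picked after their values were seen, with A and G shares of 79.6%, 77.7%, 82.1%, 85.2% and 77.5%. The remaining 24 of the 60, not counting 1 region without a placed transcript, had neither feature. By decile of mean rank, regions with at least 65% A and G were 13.4% of the lowest, 7.23% of the next and 20.3% of the highest. The purine-rich kind was therefore not confined to the top of the order. These features were noticed in the data and are given without a test, because the rank order of the same regions defines the groups.

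**Figure D2:**
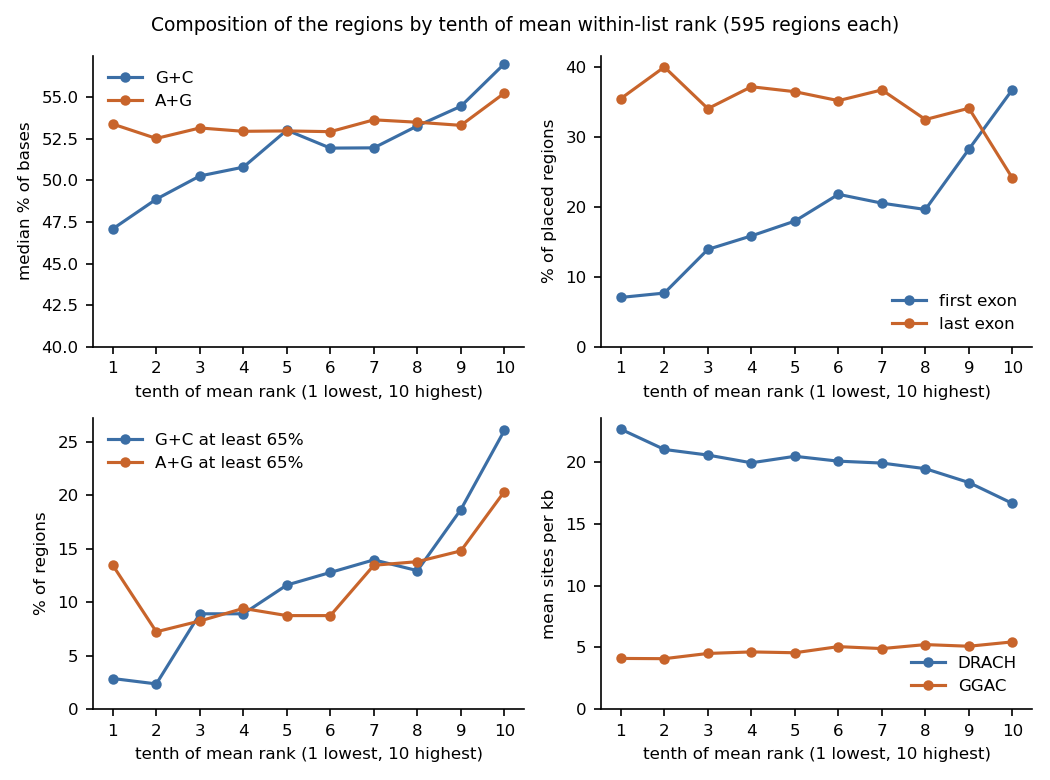
Composition of the regions by decile of mean rank (x axis, 595 regions each): median base content, share in the first and last exon, share with at least 65% G+C or A+G, and DRACH and GGAC sites per kb. First exons go from 7.07% to 36.8% and DRACH from 22.7 to 16.7 per kb between the lowest and highest deciles.

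Where the regions lie on their transcripts was compared with the other peaks of the same list, that is, the peaks outside the 5950 regions. The 6 lists share the same regions, so they are no independent draws of members, and only the other peaks differ between them. A two-sided exact sign-flip permutation test over the 6 lists was used, whose smallest p is 0.03125 and whose p-values were adjusted by Benjamini-Hochberg over 5 measures. The exon at the peak centre had a median length of 650 to 664 bases for peaks in the regions and of 210 to 472 bases for other peaks. The difference was 348.5 ± 109 bases (SD, n = 6 lists), with longer exons in the regions in 6 of 6 lists (exact permutation p = 0.03125, adjusted p = 0.0781). The adjusted value does not pass 0.05. Among peaks of 200 to 500 bases alone the difference was -3.08 bases. Peaks in the regions were themselves longer, with a median of 602 to 641.5 bases in a list against 207 to 461.5 for other peaks. A long peak meets a rule of overlap more easily, and many peaks spanned a whole exon. Exon length, here and below, is therefore tied to the choice of the regions, and its p-value is no independent result.

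Between 60.7% and 61.3% of the peaks in the regions lay in exons of at least 400 bases, against 33.5% to 53.4% of the other peaks. The window of 100 bases on either side of the start codon held 9.80% ± 0.0282 of the peaks in the regions and 12.5% ± 1.67 of the others (SD, n = 6 lists). The difference of -2.67 percentage points had the same sign in 6 of 6 lists (exact permutation p = 0.03125, adjusted p = 0.0781). It was the opposite among peaks of 200 to 500 bases, at 2.25 points.

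For the stop codon window the shares were 5.69% ± 0.225 and 6.42% ± 0.777 (SD, n = 6 lists), a difference of -0.724 points with a positive sign in 1 of 6 lists (exact permutation p = 0.15625, adjusted p = 0.195). It was -4.30 points among peaks of 200 to 500 bases and -2.65 when each base of a peak was counted (exact permutation p = 0.03125, adjusted p = 0.0521 for both). The 3′UTR share was 20.1% ± 0.490 in the regions and 20.1% ± 4.88 in the others, with a mean difference of 0.0166 points (exact permutation p = 1, n = 6 lists). That mean hides a split by group. The difference was -6.25, -4.43 and -1.51 points in the control lists but 3.32, 4.04 and 4.92 points in the H/R lists. The share in the regions itself stayed between 19.5% and 20.9% in every list, so the split came from the other peaks, whose 3′UTR share ran from 14.6% in H/R C to 26.6% in control A. DRACH matches were 20.7 ± 0.0340 per kb in the regions and 20.4 ± 0.405 in other peaks (SD, n = 6 lists; exact permutation p = 0.15625, adjusted p = 0.195), higher in 5 of 6 lists.

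**Figure D3:**
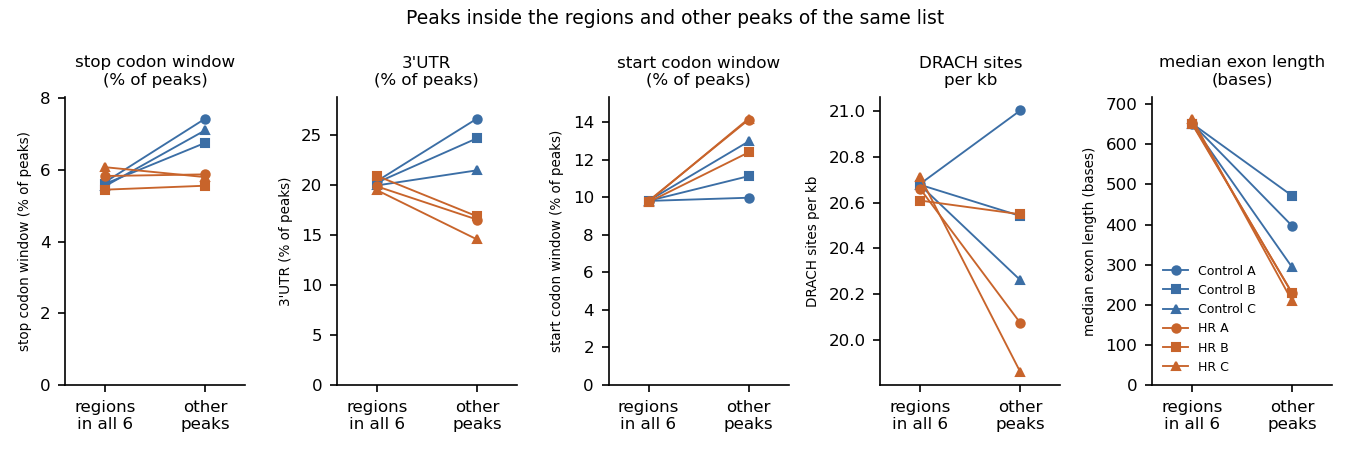
For each list, peaks inside the regions called in all 6 lists (left) joined to the other peaks of that list (right), for 5 measures (blue control, orange H/R; the DRACH axis does not start at 0). Inside the regions the lists nearly coincide, while the other peaks of control and H/R lists part in their 3′UTR share and exon length.

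The regions just outside the rule were the 2337 called in exactly 5 lists. The list that lacked them was control C in 1340 cases (57.3%) and control B in 573, followed by control A in 162 and H/R B, C and A in 137, 78 and 47. Control C was the shortest list. The median p score, 10 times the -log10 of the p-value of the peak, was 294 in control C for the regions called in all 6 lists and 102 for those called in 5, and 2324 and 641 in H/R A. Set among all peaks of their lists, the regions called in all 6 had a median mean percentile of 68.1, and those called in 5 had 47.3. The regions of highest rank that missed the rule were those of Cdv3 and Uros, both absent from H/R A. The region of Cdv3 had a fold of 239, 373 and 334 in the control lists and 276 and 261 in H/R B and C, and lay at the start of the coding sequence. Uros, an enzyme of haem synthesis, had 283, 409 and 171 in the control lists and 150 and 158 in H/R B and C.

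The 5950 regions were spread over genes unevenly. Of the 3810 genes, 2607 held 1 region, 727 held 2 and 245 held 3. Ktn1, which encodes kinectin, an anchor of kinesin on the endoplasmic reticulum, held 14 of its 25 merged regions, 12 of them centred in coding sequence. Rock1, a kinase that acts on the cytoskeleton, held 13 of 17, all in coding sequence. Erc1 (a scaffold of the cell cortex), Golim4 (a Golgi membrane protein) and Smarca2 (an ATPase of the SWI/SNF chromatin remodelling complex) held 11 each. Regions of 1 gene did not share a rank. The mean percentile of the 14 Ktn1 regions ran from 3.04 to 82.0 with a median of 39.7, and that of the 11 Golim4 regions from 30.7 to 99.0 with a median of 66.5.

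The genes were grouped by 21 lists of pathways, complexes and cell type markers that had been chosen with earlier results of these data known. For each, the genes with a peak in any list form the base, and 38.0% is the share over all such genes. Genes of chromatin regulation stood at the top. Of 29 chromatin remodellers with a peak, 24 (82.8%) held at least 1 region called in all 6 lists, as did 30 of 44 histone methyltransferases and demethylases (68.2%) and 22 of 35 acetyltransferases, deacetylases and bromodomain genes (62.9%). These genes also had more merged regions each, with medians of 7, 4.5 and 5 against 2 over all genes, and the part of that in these shares was not tested.

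Among the remodellers the highest regions belonged to Chd7 and Chd3, both chromodomain helicases. The region of Chd7 had a fold of 113, 239 and 145 in the control lists and 72.6, 75.0 and 136 in the H/R lists. In Chd3 the region was 80.1% A and G, with a fold between 64.8 and 176. For the other chromatin lists the highest were Kmt2b and Ehmt1, which methylate histone H3, and Bptf and Brd9, which read acetylated histones. Bptf had 137, 262 and 465 in the control lists and 236, 130 and 255 in the H/R lists, so that the groups overlapped widely. The median percentile of the 93 remodeller regions was 60.4 and that of the 69 methyltransferase and demethylase regions 40.1, against 48.5 over all regions. A high share of genes with a region did not go with a high rank in the latter list.

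RNA and protein synthesis were unevenly represented. Of 34 translation factors 20 held a region (58.8%), led by the first exon of Eif5b, a factor of ribosomal subunit joining, and by Eif3a. Eif5b had a fold of 202, 208 and 199 in the control lists and 92.0, 155 and 127 in the H/R lists. Of 48 splicing factors and hnRNPs 23 held a region (47.9%), led by Hnrnpm and by Snrnp70 of the U1 particle. Ribosomal protein genes were fewer, with 9 of 29 (31.0%), led by Rpl29. The higher of the pair of regions listed for Rpl29 lay on chromosome 5, where it could not be placed on a transcript model, and members of this family have many near-identical copies, so its assignment is uncertain. Respiratory chain genes held regions in 9 of 33 cases (27.3%), led by Ndufa12 and Ndufv3.

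The m6A machinery was itself among the genes. Of 23 writers, erasers and readers with a peak, 12 held a region (52.2%), and their 26 regions had a median percentile of 63.6. Zc3h13, a subunit of the writer complex, held the highest region. Its fold there was 152, 323 and 183 in the control lists and 133, 169 and 117 in the H/R lists. Other regions of Zc3h13 had mean percentiles from 31.6 to 98.2. Of the other genes the highest was Fmr1, in its first exon, an RNA-binding protein that can read m6A, with 146, 192 and 104 in the control lists and 71.7, 63.3 and 108 in the H/R lists. The nuclear reader Ythdc1 held 5 regions with mean percentiles from 47.8 to 93.8. Both demethylases held a region near the start codon, at a mean percentile of 62.3 for Fto and 51.4 for Alkbh5. Wtap held a pair of regions near the low end, at 15.2 and 15.7, and Mettl14 had a peak in some list but no region called in all 6.

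Signalling and stress genes ranged on both sides of the background. The Wnt, TGF-beta, BMP and Hedgehog list held regions in 29 of 57 genes (50.9%), led by Bcl9l, a co-activator of beta-catenin, and Smad5, a signal carrier of BMP receptors. Axon guidance genes and cadherins reached 30 of 56 (53.6%), led by Sema3e and Plxna2. The p53 pathway genes reached 15 of 28 (53.6%), led by Bbc3, which promotes apoptosis, and Gadd45g. For ER stress the count was 18 of 39 (46.2%), led by Mbtps1, the site 1 protease that activates Atf6, and Pdia4, a disulfide isomerase. Immediate early genes held regions in 11 of 29 cases (37.9%), led by Ier5l and Jund, and insulin, Akt and mTOR genes in 15 of 42 (35.7%), led by Pik3r1 and Irs2. Of the hypoxia genes 11 of 33 held a region (33.3%), led by Egln1, the oxygen sensor that marks HIF for decay, and Vegfa, the vascular growth factor. Egln1 had a fold of 96.1, 103 and 53.4 in the control lists and 57.0, 77.6 and 83.4 in the H/R lists. Its percentiles of 94.7, 92.8 and 82.4 in the control lists lay below those of 95.9, 96.3 and 97.6 in the H/R lists, and it was not called (limma adjusted p = 0.605).

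Both lists tied to cell division lay below the background. Mitosis genes held regions in 15 of 51 cases (29.4%), led by Incenp and the kinesin Kifc1, and DNA replication genes in 6 of 37 (16.2%), led by Lig1 and Pola1, a ligase and a polymerase subunit. The 13 regions of the replication genes had a median percentile of 25.7. Extracellular matrix and integrin genes held regions in 14 of 47 cases (29.8%), led by Col18a1 and Mmp14.

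The label of the cells as NSCs was checked against markers. Of 31 neural stem cell and Notch genes with a peak, 16 held a region (51.6%), among them Sox2, Nes, Notch1 and Jag1. The Sox2 region, on its only exon, had a fold of 98.3, 132 and 81.3 in the control lists and 38.9, 38.2 and 47.9 in the H/R lists, and Sox4 was next in rank. Percentiles of the Sox2 region were 94.9, 95.9 and 92.8 in the control lists against 89.9, 80.0 and 90.9 in the H/R lists. The Sox2 region was not called (limma adjusted p = 0.623). Msi1 had a peak in some list but no region called in all 6, and Vim, Pax6 and Fabp7 had no peak in any list. Of the markers of astrocytes, oligodendrocytes and microglia, 6 of 24 had a peak in some list, and of those of neurons 4 of 26, and none held a region called in all 6. A peak list shows a call and not the level of an mRNA, and fewer cells of a type and less RNA per cell cannot be told apart in bulk RNA.

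**Figure D4:**
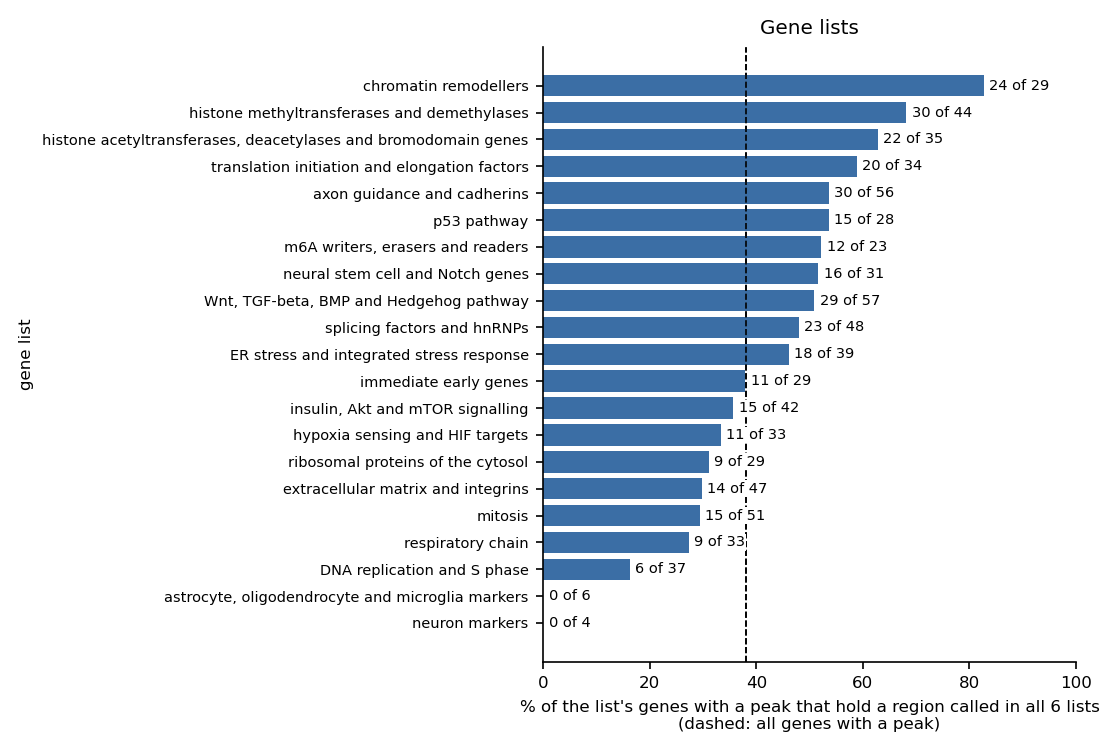
Share of each list's genes with a peak that held a region called in all 6 lists (bars, with counts), beside the share over all genes with a peak (dashed line, 38.0%). Chromatin lists lie at the top with up to 82.8%, DNA replication at 16.2%, and the marker lists of other cell types at 0.

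Gene Ontology terms deposited with the peaks were counted in the same way. Over the 155 biological process terms with at least 50 genes among those with a peak, the share of genes with a region ran from 18.2% to 58.6%. Chromatin modification had 123 of 220 genes (55.9%), chromatin remodeling 33 of 60 (55.0%), axon guidance 41 of 73 (56.2%) and negative regulation of canonical Wnt signaling 36 of 62 (58.1%). At the low end were lipid transport with 10 of 55 (18.2%), fatty acid metabolic process with 15 of 72 (20.8%) and oxidation-reduction process with 76 of 308 (24.7%). The term DNA replication, with 46 of 91 genes (50.5%), lay above the background, unlike the narrower list of replication genes above. Cell cycle with 186 of 454 (41.0%), cell division with 109 of 272 (40.1%) and mitotic nuclear division with 78 of 212 (36.8%) lay close to it. By symbol, 28 of 40 Zbtb genes (70.0%) and 135 of 294 Zfp genes (45.9%), which encode zinc finger proteins, held a region. These families were picked after the counts were seen, and no test of enrichment was made.

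The comparison between H/R and control asked whether a region changed its place in the order of its list. The rule asked for a call in both groups and so did not set the direction of such a change. Ranks were turned into normal scores and fitted with limma over all 5950 regions, with Benjamini-Hochberg adjustment. Only Kbtbd11 and Ccsap passed 0.05, and both rose in rank after H/R. That is 0.0336% of the regions called higher in H/R and 0% called lower, and 604 had an unadjusted p under 0.05. In Kbtbd11 the fold was 19.5, 29.1 and 23.9 in the control lists and 46.2, 59.4 and 81.7 in the H/R lists, which did not overlap. Its percentile went from 19.4, 26.8 and 31.8 to 92.9, 92.6 and 97.5, a difference in normal score of 2.28 ± 0.282 (SE, limma adjusted p = 0.0473, n = 3 libraries a group). In Ccsap the fold was 23.2, 33.8 and 21.4 in the control lists and 54.8, 81.1 and 52.7 in the H/R lists, again without overlap. Its percentile went from 30.5, 37.9 and 23.8 to 95.6, 96.8 and 92.8, a difference of 2.18 ± 0.270 (SE, limma adjusted p = 0.0473, n = 3 libraries a group).

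Neither call held when any 1 library was left out, where the counts over all regions were 0 or 1 (Gm11168 without H/R B and Tulp4 without control B, both lower), although the difference of Kbtbd11 stayed between 2.11 and 2.37 and that of Ccsap between 2.08 and 2.29. With the fold adjusted for peak length both missed the threshold (limma adjusted p = 0.0538), at differences of 2.25 and 2.21. The peak that stood for Kbtbd11 had 1502, 1605 and 1622 bases in the control lists and 2541, 2406 and 1659 in the H/R lists. With the p score ranked in place of fold, Kbtbd11 was called and Ccsap was not (limma adjusted p = 0.0436 and 0.0586). Ranks of the 3 control and 3 H/R lists did not overlap in 499 regions higher in H/R (8.39%) and 428 lower (7.19%). The regions below are the extremes of these and were not called.

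On the higher side stood Tmem123, a membrane protein, whose first-exon region had a fold of 10.96, 18.45 and 14.95 in the control lists and 24.4, 23.9 and 32.0 in the H/R lists, a difference of 2.23 (limma adjusted p = 0.0687). The other differences were 1.97 in Trerf1, a transcriptional regulator, 1.95 in Synm, an intermediate filament protein, 1.92 in the atypical cadherin Fat4, 1.79 in the centrosomal Cntrl, 1.74 in the peptidase Cndp2 and 1.70 in Sgsm2. Their adjusted p-values lay between 0.0956 and 0.182 (limma). Of these 7 regions, 5 were in the first exon, namely Tmem123, Synm, Fat4, Cndp2 and Sgsm2.

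On the lower side, apart from the pair of predicted genes taken up below, Dhx38, a splicing helicase, had a last-exon region with a fold of 79.2, 64.3 and 51.5 in the control lists and 12.9, 16.6 and 11.9 in the H/R lists, a difference of -1.71 (limma adjusted p = 0.109). Ctnnbl1, a spliceosome-associated protein, had -1.89, and Piga, which starts the synthesis of GPI anchors, had -1.86. Ggct, an enzyme of glutathione breakdown, had -1.86, Srp19 of the signal recognition particle -1.79, Nfs1, which supplies sulfur for iron-sulfur clusters, -1.71, the retrovirus restriction factor Fv1 -1.64 and 4932438A13Rik -1.63. Their adjusted p-values lay between 0.137 and 0.390 (limma). Of these 8 regions beside the predicted genes, Dhx38, Ggct, Srp19, Nfs1 and 4932438A13Rik were in the 3′UTR.

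The difference in rank moved with base composition. Its median was -0.256 in the decile of regions lowest in G and C (26.1% to 41.1%) and 0.212 in the highest decile (67.6% to 85.6%), and Spearman's rank correlation over the regions was 0.299, a description over regions that share libraries. The range was widest in H/R A and C. From the lowest to the highest decile of G and C, the median percentile went from 29.5 to 71.9 in H/R A. It went from 27.1 to 78.2 in H/R C and from 47.7 to 70.9 in H/R B. In control A, B and C it went from 44.5 to 59.2, from 41.8 to 65.2 and from 46.8 to 69.8. By position, 17.1% of the regions centred in the 5′UTR had non-overlapping higher ranks in H/R and 3.38% lower, against 2.83% and 10.8% of those in the 3′UTR. With the fold adjusted for G and C content within each list, an alternative added after seeing the data, Kbtbd11 and Ccsap were still called and Tmem123 was called as well (limma adjusted p = 0.0234). The part of base composition in the other differences was not tested.

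**Figure D5:**
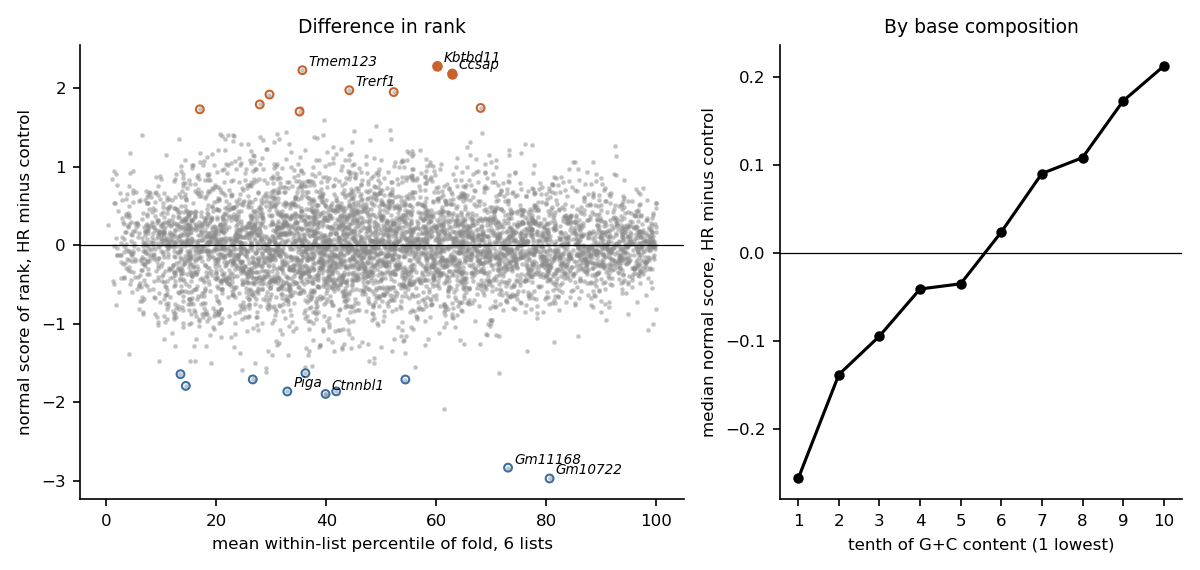
Left, difference in normal score of rank (H/R minus control) of each of the 5950 regions against its mean percentile; filled points passed limma at an adjusted p of 0.05, and open circles mark the largest non-overlapping differences. Right, median difference by decile of G+C content, from -0.256 to 0.212.

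By gene list, non-overlapping higher and lower ranks were counted beside the 8.39% and 7.19% of all regions. The Wnt, TGF-beta, BMP and Hedgehog list had 6 higher and 0 lower of 42 regions, with a median difference of 0.227, and axon guidance genes and cadherins had 8 and 1 of 50. Translation factors had 2 higher and 4 lower of 34, with a median difference of -0.219. Hypoxia genes had 3 and 1 of 15, with a median of 0.225, and the m6A machinery 2 and 1 of 26, with a median of 0.0794. Over all regions the median difference was -0.00623. None of these list members was called.

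Gm10800 and 4 further predicted genes, Gm10801, Gm10722, Gm11168 and Gm21738, formed a set apart. They lie on chromosomes 2, 9 and 14, and between 66.7% and 80.6% of the 16-base words of each region were found in the other 4, on either strand. Whether reads could be assigned to 1 of these regions was not tested, so their values are uncertain. Gm10800 had a fold of 3217, 7506 and 14837 in the control lists and 154, 403 and 148 in the H/R lists. Gm10722 had 688, 1069 and 1549 in the control lists and 7.23, 74.5 and 36.3 in the H/R lists. In all 5 regions every control value was above every H/R value.

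In rank the regions of this set differed. Gm10800 stood above the 99th percentile in every list, with a difference of -0.82 (limma adjusted p = 0.382). Gm10722 stood above the 99.9th percentile in the control lists and at 4.49, 96.0 and 83.2 in the H/R lists, a difference of -2.97 (limma adjusted p = 0.272). In Gm11168 the difference was -2.83 (limma adjusted p = 0.0867). On the log2 scale, with the median of the regions in each list subtracted, Gm10800, Gm10801, Gm10722 and Gm11168 were called lower in H/R, by -4.34, -3.93, -4.53 and -3.57 (limma adjusted p = 0.00583, 0.00963, 0.0107 and 0.00583), and Gm21738, at -2.42, was not (adjusted p = 0.0621).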

How the data were processed

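C17.2 cells (3 control and 3 H/R samples, each as IP and input) were profiled by MeRIP-seq. The authors trimmed reads with cutadapt 1.9.3 and aligned them with HISAT2 2.0.4, kept uniquely mapped reads, and called peaks with MACS (version not given in the sources used here) for each IP against its input on mm10. For every peak the authors deposited a fold enrichment (a ratio of IP to local background), a score of 10 times -log10 of the p-value and a false discovery rate in percent, beside its coordinates. The peak lists hold no read counts, and the read totals that the study states for each library were not used here, so no counting interval is given. Whether reads were counted by strand was not stated.

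The merged regions, percentiles and normal scores were computed in Python 3.11.15 with pandas 2.3.3, NumPy 2.4.6 and SciPy 1.17.1. Where a list held several peaks in a region, the peak of highest fold stood for it. Peak centres were placed on RefSeq and GENCODE transcript models of the GRCm38 (mm10) reference. The difference in rank was fitted with limma 3.58.1 in R 4.3.3 over 5950 regions, with Benjamini-Hochberg adjustment at 0.05. On simulated data with 200 shifted regions, 30.5% were recovered at a shift of 1.5 in normal score and 85.5% at 2.5. In these runs 3 and 5 regions without a shift were called as well. The simulated noise was independent for each region and had no link to base composition, unlike the data, so these figures may not carry over. Shares were compared with exact sign-flip tests over 6 lists. Named regions were the 12 highest and 6 lowest in mean rank, the 10 largest non-overlapping differences each way, the 2 highest of each gene list, the 5 genes with most regions and the 2 highest regions called in 5 lists, with others named as chosen after their values were seen. A few of these are not reported here. The members and gene lists were chosen with earlier results of these data known. Alternatives in the threshold on peaks, the overlap, peak length, the scale, the peaks ranked and the libraries were tried.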

Additional observations from a re-analysis of the deposited data

How the results depend on the processing

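The number of regions called in all lists stayed within 1.5 times of 5950 under every alternative, at 5945 where a base had to be covered by all lists, 4548 at a p score of at least 100, 4714 at a fold of at least 10, 4293 with lists of equal length, 5915 with an overlap of 50 bases, and 5998 to 7291 with 1 list left out, the highest being without control C. Against 2 calls in the comparison of ranks (limma), the count was 0 with the fold adjusted for peak length, 0 among regions with exactly 1 peak in each list, 7 on the log2 scale after median centring, 48 when ranked among all peaks of a list, and 0 to 1 with a library left out. Kbtbd11 held more than 1 peak in a list, so it was not among the regions with exactly 1 peak in each list. The H/R lists are longer than the control lists, and a rank among all peaks depends on list length by construction. With the p score ranked in place of fold the count was again 2, with Fmn1, lower in H/R, in place of Ccsap, whose adjusted p was 0.0899 among regions with exactly 1 peak in each list. For the other counts the cause was not tested. At an unadjusted p under 0.05 the count was 651 with the adjustment for peak length and 591 among regions with exactly 1 peak in each list. With both alternatives added after seeing the data, the count was 3 with adjustment for G and C content and 2 without the 5 regions of repeated sequence. Of 277 values of the 20 named differences under alternatives, 0 reversed. These 20 were picked among regions whose control and H/R ranks did not overlap. With such ranks, leaving out 1 list cannot change the sign, so that count is no measure of stability.

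The difference in 3′UTR share reversed from 0.0166 to -2.87 points among peaks of 200 to 500 bases, -2.30 at a p score of at least 100, -2.22 against regions called in 4 or 5 lists and -6.50 when each base was counted, and ran from -0.965 to 1.27 with a list left out, below 0 without any 1 of the H/R lists. Among peaks of 200 to 500 bases the start codon window reversed to 2.25 points and the exon length to -3.08 bases. Without a change of sign, the stop codon window went from -0.724 to -4.30 points among those peaks and to -2.65 when each base was counted, and DRACH from 0.288 to 0.0657 per kb against regions called in 4 or 5 lists. The cause was not tested. No paired analysis was possible because no label links the letters A, B and C to a replicate number. The part of read depth in the length of the lists was not tested, and a missing call does not show a lack of enrichment.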
